A study of Mus musculus with 24 samples.

Results

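miR-26a and miR-26b are a pair of microRNAs (miRNAs) with one seed, and they were followed here in the lungs of c-Raf transgenic and wild type mice. The members were the 2 mouse miRNAs named mmu-miR-26a and mmu-miR-26b on an Agilent array, without star forms, among 611 mouse miRNAs on that array. The pair was selected on the male difference of miR-26b, which was called as up-regulated in transgenic lungs in an earlier look at the same arrays, so differences of the pair that use male arrays are given as a description, without a test. The female comparison was not what chose the pair, and it was tested, with a spread pooled over the arrays of both sexes. In short, miR-26b was higher in M c-Raf than in M WT by 1.31 on the log2 scale. The M WT levels, and some in M c-Raf, were close to background. The size of the male difference, and in 1 setting its direction, depended on the processing. The female difference of miR-26b, 0.56, did not pass the test, and neither did that of miR-26a.

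Total RNA from frozen, microdissected lung tissue was hybridised to 24 single-colour arrays, 1 animal each, in 4 groups of 6. M c-Raf and F c-Raf were male and female SP-C/c-raf mice, which carry a c-Raf-1 transgene under the surfactant protein C promoter, active in lung epithelium. M WT and F WT were male and female wild type mice without it, and all animals were 4 to 6 months old. The tissue entry of the labels reads lung adenocarcinoma for all 24 samples, wild type included, although the protocol describes the wild type tissue as normal. The transgene mRNA was not measured on these arrays, so the genotype labels could not be checked by it.

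A miRNA guides a silencing complex to messenger RNAs that pair with its seed, and miRNAs with one seed are expected to share many targets. The miR-26 genes lie within introns of the CTD small phosphatase genes (Ctdspl, Ctdsp2 and Ctdsp1) and are usually expressed with them in many tissues. miR-26a is known as a growth-restraining miRNA that targets the histone methyltransferase Ezh2 and that is repressed by the transcription factor MYC. c-Raf is a kinase that activates MEK and ERK downstream of Ras.

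The mature sequences are shown because the near identity of the pair bears on what the probes can tell apart. They are the RefSeq entries of GRCm38.p6, found for 2 of the 2 members, with the seed, bases 2 to 8 from the 5′ end, in capitals.
miR-26a-5p: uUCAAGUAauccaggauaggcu
miR-26b-5p: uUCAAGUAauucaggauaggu
Counted from the 5′ end, miR-26b differs from miR-26a by C11U and C21U and is 1 base shorter. Over the 21 bases of miR-26b, 19 are alike, and the first 10 are identical. Among 1679 mature mouse names in that table, only these 2 carry this seed at bases 2 to 8. Mature miR-26a is encoded on the plus strand at chr9:119031811-119031832, within Ctdspl (chr9:118926536-119044119), and again at chr10:126995543-126995564, within Ctdsp2 (chr10:126978717-126999975). Mature miR-26b is encoded on the plus strand at chr1:74394324-74394344, within Ctdsp1 (chr1:74391609-74397285). The array cannot separate the RNA of the 2 miR-26a genes, and how far the probes of one member bind the other was not tested.

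Each member of the pair was read by 20 spots per array, 10 for each of 2 probes. The level of a miRNA is the median of its background-subtracted spots divided by the brightness of the array, a scaling value taken from the 27 mouse miRNAs detected on all 24 arrays, and it is given on the log2 scale. A level of 0 therefore equals the brightness of the array, and the lowest level that can be given is -6.64, the floor. Brightness differed widely, from 34.9 to 1212 intensity units, with a median of 433 for M c-Raf, 176 for M WT, 193 for F c-Raf and 265 for F WT. Of the marker miRNAs, the epithelial miR-200b and miR-200c were detected on 24 of 24 arrays, miR-429 on 13, miR-200a on 11 and miR-141 on 1, and the endothelial miR-126-3p on 23 and miR-126-5p on 0. Of the leukocyte miRNAs, miR-223 was detected on 12, miR-150 and miR-155 on 7 each and miR-142-3p and miR-142-5p on 0, and of those of heart, muscle and brain, miR-133a was detected on 14 and miR-1, miR-208a, miR-208b, miR-124 and miR-9 on 0. The replicate number is the slide, so each of 6 slides held 1 array of each group, and each group had its own fixed position on the slides, so position and group cannot be told apart.

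Both members passed the filter of detection on at least 6 of the 24 arrays, as did 120 of the 611 mouse miRNAs. miR-26a was detected on 23 of 24 arrays, that is on 5 of the M WT arrays and on 6 of 6 in each other group. miR-26b was detected on 12 of 24, that is on 4 M c-Raf, 1 M WT, 5 F c-Raf and 2 F WT arrays. It thus passed the filter through the transgenic groups, where its level was higher, and the wild type arrays alone would not have sufficed. Detection of miR-26b went with brightness, since the 12 arrays where it was detected had a median brightness of 348 units and the other 12 had 164. Between females, detection on 5 F c-Raf and 2 F WT arrays did not pass the test (Fisher's exact test, two-sided, p = 0.242). The opposite strand, miR-26b*, the only star form of the pair on the array, was detected on 0 of 24 arrays and lay at the floor on 21.

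**Figure D1:**
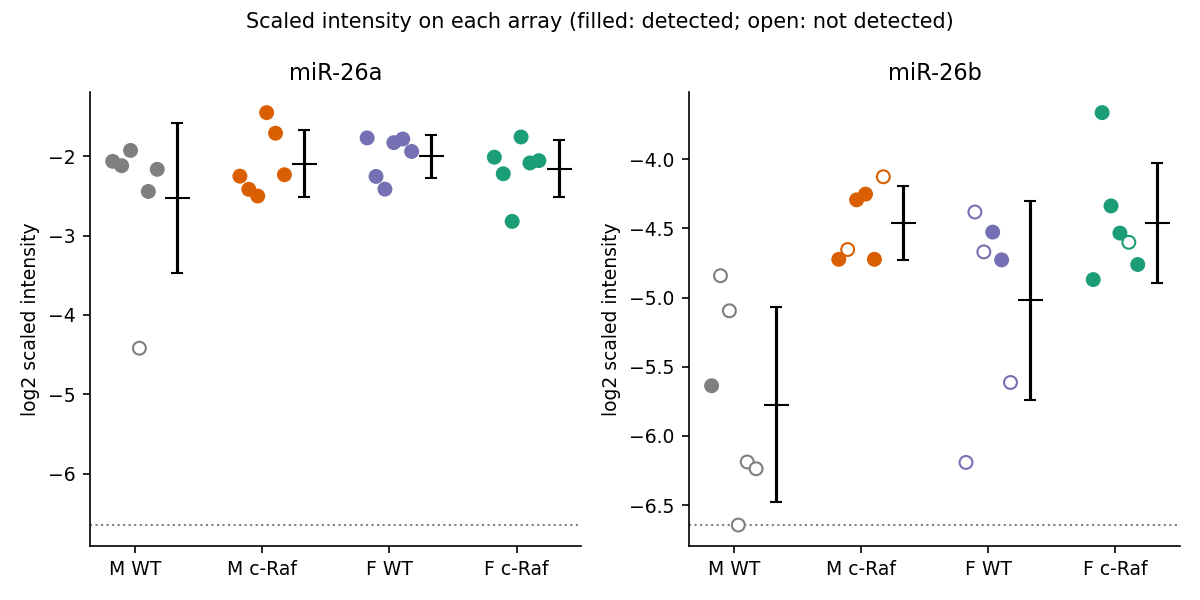
Level of miR-26a (left) and miR-26b (right) on each of 24 arrays, as log2 intensity relative to array brightness, with 6 arrays per group, filled where detected and open where not. Black bars are the mean ± SD, and the dotted line is the floor at -6.64; the miR-26b levels of M c-Raf all lie above those of M WT, while M WT replicate 4 is the lowest array for both members.

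miR-26b had its lowest levels in M WT. On the log2 scale the lowest, median and highest levels were -6.64, -5.91 and -4.84 in M WT and -4.72, -4.47 and -4.13 in M c-Raf. The male groups did not overlap, since the lowest M c-Raf array lay just above the highest M WT array. In F WT they were -6.19, -4.70 and -4.38, and in F c-Raf they were -4.87, -4.57 and -3.66. The female groups overlapped, with 2 F c-Raf arrays above every F WT array and 2 F WT arrays below every F c-Raf array.

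As a share of array brightness, the mean level of miR-26b was 4.60% ± 0.85 (SD, n = 6) in M c-Raf and 2.02% ± 0.99 (SD, n = 6) in M WT. F c-Raf had 4.73% ± 1.64 (SD, n = 6), against 3.38% ± 1.36 (SD, n = 6) for F WT. In order of mean log2 level, both transgenic groups stood first at -4.46, followed by F WT at -5.02 and M WT at -5.77. The transgenic groups differed from each other by 0.00 to 2 decimals, less than the spread of either. M WT lay below F WT by -0.76 (SE 0.32), and 3 of the 4 lowest miR-26b arrays were M WT arrays.

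In males, the comparison that chose the pair, miR-26b was higher in M c-Raf than in M WT by 1.31 (SE 0.32) on the log2 scale, and it was higher on 6 of 6 slides. On slides 2 and 6 it was not detected on the M c-Raf array, and that of slide 6 was the faintest array of all. The difference on slide 6 was 2.11, with miR-26b not detected on its M WT array either. miR-26b had the highest rise of the 120 miRNAs tested. limma called 2.5% of the 120 miRNAs in this comparison and 0.833% as higher in c-Raf, 1.67% had higher and non-overlapping groups, and 6.67% were higher on 6 of 6 slides. Since this contrast chose the pair, nothing is read from these shares. The median difference of the 120 miRNAs was 0.13. Also inside the threshold of the choice were miR-214 (-1.03, SE 0.19), a mesenchymal miRNA, and miR-486 (-1.41, SE 0.33), an erythroid miRNA. Both lay further inside it than miR-26b, and the nearest on the other side were miR-193b (-0.85, SE 0.25) and miR-126-3p (0.95, SE 0.30). Male differences within scans 1, 2, 3 and 4 were 2.39, 1.79, 0.91 and 0.50, with 1, 2, 1 and 2 slides in each. These share a direction and differ in size.

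The low side of the male comparison was close to background. Only 1 of the 120 miR-26b spots in M WT was well above background by the extraction software, against 76 for M c-Raf, 47 for F c-Raf and 32 for F WT. On all 6 M WT arrays the level lay below the lowest signal that was well above background there, which averaged -3.32, above the M c-Raf mean. The M WT value is thus a bound, and no lower limit for the fold could be given. On M c-Raf replicates 2 and 6 the level also lay below the lowest such signal of the array. On replicate 6 miR-26b, at -4.13, was dimmer than miR-26b*, at -3.99, and neither was detected there. These M c-Raf levels were therefore not clear signal either. With the lowest signal well above background as the floor in every array, the male difference was -0.50 and the female one -0.17. The male median over the 120 miRNAs was -0.65 under that floor.

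A second measure of background came from the 407 mouse miRNAs that were detected on none of the 24 arrays. The unscaled miR-26b intensity lay above the 95th percentile of these miRNAs on 6 of 6 arrays in M c-Raf, F c-Raf and F WT, and on 4 of 6 in M WT. The exceptions were M WT replicate 4, at -0.64 units, where 38.1% of the never-detected miRNAs were at least as bright, and M WT replicate 5, at 2.79 units, where 15.7% were. On the other M WT arrays that share was between 0 and 1.23%. For miR-26a the share was 0 on every array except M WT replicate 4, where it was 1.23%. The choice of this measure was made after seeing the data.

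**Figure D2:**
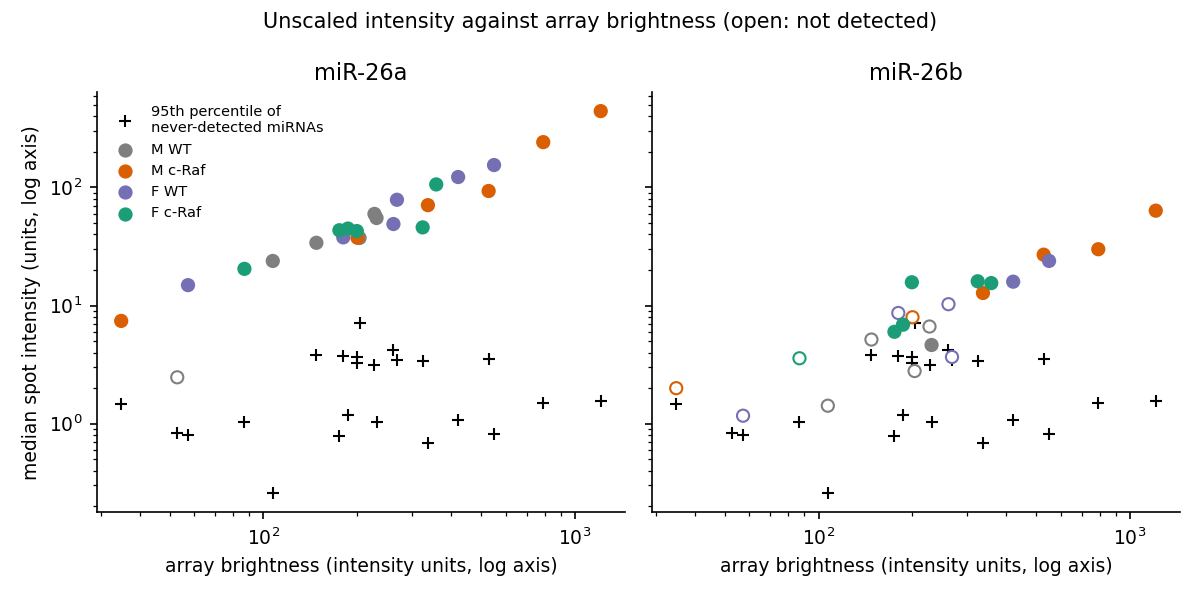
Median spot intensity of miR-26a (left) and miR-26b (right) against array brightness, both in intensity units on log axes, coloured by group, with open points where the miRNA was not detected; crosses are the 95th percentile of the 407 never-detected miRNAs on the same array. Not drawn are 2 values below 0, miR-26b on M WT replicate 4 and the cross of F c-Raf replicate 4. miR-26a lies far above the crosses on most arrays, while miR-26b comes close to them on the fainter ones.

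In females, the question of whether the c-Raf transgene goes with another miR-26b level was tested. miR-26b was higher in F c-Raf than in F WT by 0.56 (SE 0.32), a 1.47-fold ratio, on 5 of 6 slides. The difference did not pass (limma, adjusted p = 0.423 over 120 miRNAs). Fitted on the female arrays alone, where no male array enters the spread, the SE was also 0.32 (limma, adjusted p = 0.345). The exact two-sided permutation test over the 924 ways to divide the 12 arrays, which took no account of slide, gave p = 0.177. The 95% interval of the difference ran from -0.11 to 1.22, or from 0.929-fold to 2.33-fold, so neither no difference nor a doubling lies outside it. Both female groups were near background too. On 4 F WT arrays miR-26b was dimmer than the faintest signal that the software set clearly over background. The same held on every F c-Raf array but replicate 4. In F WT that signal averaged -3.80, above the F c-Raf mean of -4.46, so the interval sets no firm limit on the fold. For comparison, limma called 5.0% of the 120 miRNAs in females, 6 in number and 10 with slide as a block, and 3.33% as higher in c-Raf, 1.67% had higher and non-overlapping groups, 8.33% were higher on 6 of 6 slides, and the median difference was 0.03. By size of rise miR-26b stood at rank 18 of the 120. Within scans 1, 2, 3 and 4 the female differences were -0.0071, 0.49, 1.32 and 0.53.

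The levels of miR-26a overlapped between the genotypes in both sexes. On the log2 scale its lowest, median and highest levels were -2.50, -2.24 and -1.45 in M c-Raf and -4.42, -2.14 and -1.93 in M WT. The groups overlapped, and the median of M WT was the higher of the pair although its mean was the lower. In F c-Raf they were -2.82, -2.07 and -1.76, and in F WT -2.42, -1.89 and -1.77. These groups overlapped almost entirely.

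The mean level of miR-26a was -2.10 ± 0.42 (SD, n = 6) in M c-Raf and -2.52 ± 0.94 (SD, n = 6) in M WT, a difference of 0.43 (SE 0.32), with higher levels on 2 of 6 slides. That difference rested on 1 array, and without M WT replicate 4, where miR-26a was not detected, it was 0.05. F c-Raf had a mean of -2.16 ± 0.36 (SD, n = 6) and F WT had one of -2.0 ± 0.27 (SD, n = 6). The difference of -0.16 (SE 0.32) did not pass (limma, adjusted p = 0.897), with higher levels on 2 of 6 slides. Its 95% interval ran from -0.82 to 0.50, or from 0.566-fold to 1.42-fold. That SE and interval take their spread from the male arrays too, M WT replicate 4 among them. Without that array the SE was 0.190 (limma, adjusted p = 0.712). With the female arrays alone it was 0.186 (limma, adjusted p = 0.688), so the interval is wider than the female spread alone would make it. The exact permutation test gave p = 0.420 for the same 12 arrays. In order of mean level F WT came first, then M c-Raf, F c-Raf and M WT, and each neighbour in that order differed by less than the larger SD of the 2 groups. Within scans 1, 2, 3 and 4 the male differences were 2.97, 0.33, -0.19 and -0.44, where scan 1 held M WT replicate 4, and the female ones were 0.07, -0.21, -0.24 and -0.19.

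**Figure D3:**
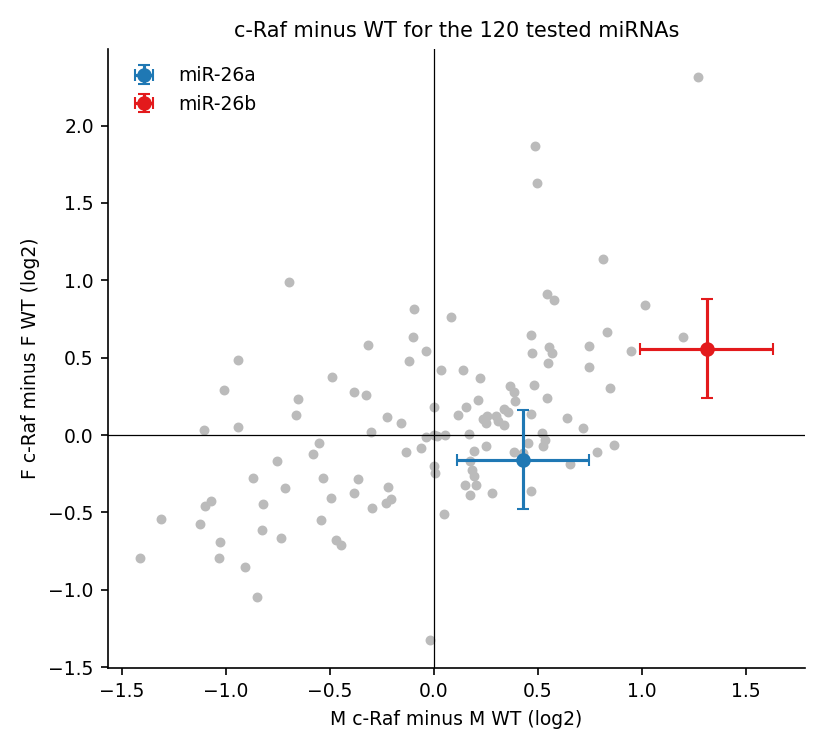
Difference between c-Raf and WT in males (horizontal axis) and in females (vertical axis) on the log2 scale for the 120 tested miRNAs, in grey, with miR-26a in blue and miR-26b in red, each ± SE. miR-26b lies farthest to the right at 1.31 and at 0.56 in females, and miR-26a lies at 0.43 and -0.16.

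Averaged over both sexes, the difference was 0.93 (SE 0.23) for miR-26b and 0.13 (SE 0.23) for miR-26a. The male difference exceeded the female one by 0.75 (SE 0.45) for miR-26b and by 0.59 (SE 0.45) for miR-26a. Both include the male arrays that chose the pair, and no test of a sex difference is given. In wild type lungs the male minus female difference was -0.76 (SE 0.32) for miR-26b and -0.52 (SE 0.32) for miR-26a, and in transgenic lungs it was 0.00 and 0.06 (SE 0.32 each).

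Each probe of a member was also read alone. For miR-26b the male difference was 1.26 by probe 1 and 1.44 by probe 2, and the female difference was 0.37 and 0.88. All 4 values had the same direction, with the lower value from probe 1 in both sexes. For miR-26a the male difference was 0.70 and 0.60, and the female difference was 0.03 and -0.05, so the female direction was not shared by its probes. Probe 2 was the brighter one on 24 of 24 arrays for miR-26a and on 22 of 24 for miR-26b. The reported level, the median over 20 spots, lies between those of the probes. A difference of such levels need not, and those reported for miR-26a, 0.43 in males and -0.16 in females, lie outside both probe values. On arrays where the miRNA was detected, the median coefficient of variation among the 10 spots of a probe was 14.8% and 10.6% for the probes of miR-26a and 26.8% and 16.3% for those of miR-26b.

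**Figure D4:**
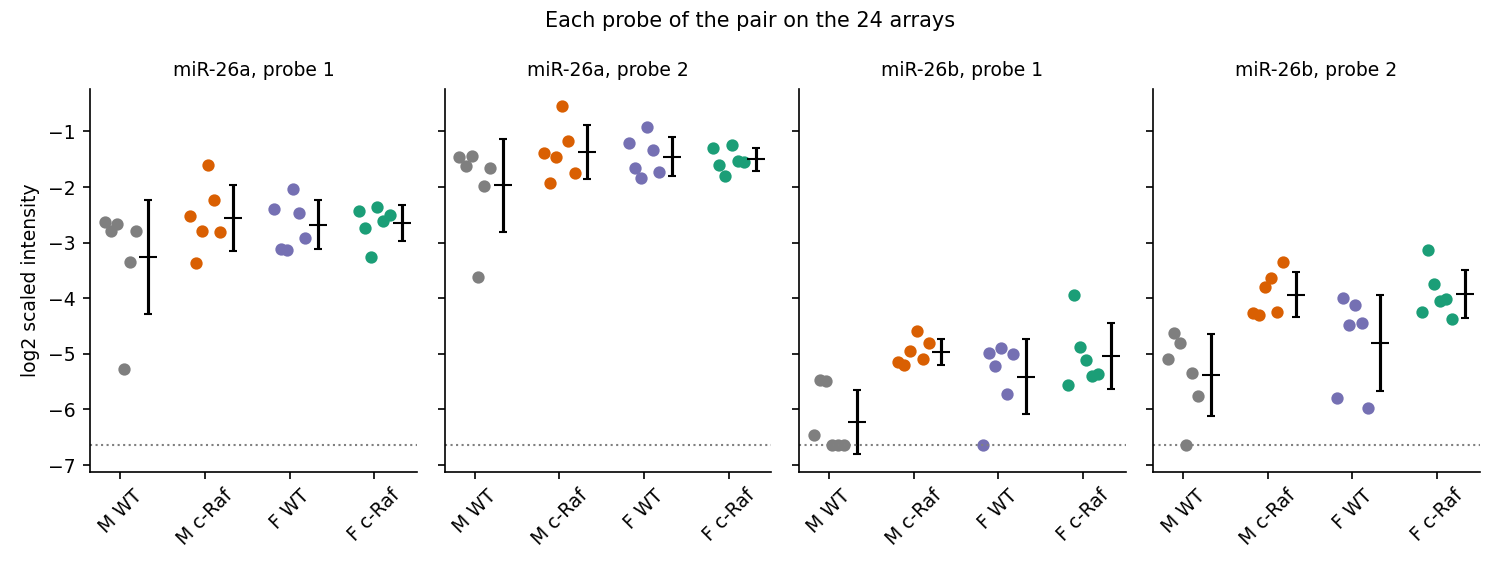
Level of each of the 2 probes of miR-26a and miR-26b on the 24 arrays, as log2 intensity relative to array brightness, with 6 arrays per group; black bars are the mean ± SD and the dotted line is the floor at -6.64. Both miR-26b probes are lowest in M WT, and probe 1 of miR-26b reaches the floor there.

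Relations across arrays were tested on the 12 female arrays, a choice made after seeing the data, since the male arrays chose the pair. There miR-26a and miR-26b had a Pearson r of -0.45 (permutation p = 0.138, adjusted 0.413 over 3 relations) and a Spearman rho of -0.50 (permutation p = 0.0983, adjusted 0.295). Against log2 brightness, miR-26a had r = 0.06 (permutation p = 0.842, adjusted 0.842) and rho = 0.33 (permutation p = 0.296, adjusted 0.354), and miR-26b had r = 0.24 (permutation p = 0.448, adjusted 0.672) and rho = 0.29 (permutation p = 0.354, adjusted 0.354). None of the 3 relations passed. When the 2 arrays most extreme in the first measure were dropped, r was -0.54, 0.29 and -0.05 in the same order, and no scan held more than 4 female arrays, too few for a value within scans.

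Over all 24 arrays, as a description, r was 0.36 between the members, 0.46 between brightness and miR-26a and 0.34 between brightness and miR-26b. With 2 arrays dropped likewise these were -0.02, 0.45 and 0.49. Without M WT replicate 4 the first was -0.10. Within scans 2 and 4, of 8 arrays each, it was 0.40 and -0.37 between the members, 0.54 and -0.59 for brightness and miR-26a, and -0.01 and 0.19 for brightness and miR-26b. Brightness enters the level as its divisor, and its median was higher in M c-Raf than in M WT. With log2 brightness as a covariate, an alternative added after seeing the data, the miR-26b difference was 1.19 in males and 0.58 in females.

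The miRNAs whose levels were most like those of the members over the 24 arrays were taken by Pearson r among the 120 tested, as a description, since all points share slide, scaling and brightness. For miR-26b these were miR-130a (r = 0.85), let-7g (0.78), miR-16 (0.75), let-7d (0.73) and miR-21 (0.66). They were picked for likeness over arrays that include the male groups, so their own direction in males is no separate finding, and 57.5% of all 120 miRNAs were higher in c-Raf in males and 52.5% in females. Their means were higher in c-Raf by 1.20, 0.74, 1.02, 0.36 and 1.27 in males and by 0.64, 0.44, 0.84, 0.15 and 2.31 in females. Of these 10 differences only that of miR-21 in females, a miRNA often raised in tumours, passed (limma, adjusted p = 0.00157). The likeness was similar without M WT replicate 4, at 0.83, 0.72, 0.71, 0.63 and 0.55.

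For miR-26a the most alike were miR-27a (r = 0.83), miR-29a (0.82), miR-140* (0.82), miR-25 (0.78) and miR-99a (0.75). Without M WT replicate 4 these fell to 0.33, 0.40, 0.53, 0.20 and 0.33, so the likeness rested largely on that array. Their differences were 0.78, 0.72, 0.18, 0.47 and 0.87 in males and -0.11, 0.05, -0.39, -0.36 and -0.07 in females, and limma called none of these 10. miR-26b itself stood at rank 35 in likeness to miR-26a, and miR-26a at rank 40 in likeness to miR-26b.

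MYC represses a group of miRNAs to which the pair belongs, with let-7, miR-15a, miR-16, miR-29 and miR-30 members among them. Of 25 others in that group, 22 were tested. limma called 0 of them in males and 0 in females, beside 2.5% and 5.0% of all 120. At an unadjusted p under 0.05 were 5 (22.7%) in males and 3 (13.6%) in females, beside 20.8% and 14.2% of all 120. In males 17 of the 22 (77.3%) were higher in c-Raf, with a median difference of 0.35, beside 57.5% and 0.13 over all 120 miRNAs. In females 15 of the 22 (68.2%) were higher, with a median of 0.14, beside 52.5% and 0.03. The smallest p-values in males were those of miR-16 (1.02, SE 0.38), let-7g (0.74, SE 0.28) and let-7d (0.36, SE 0.14), all with limma adjusted p = 0.137. In females they were those of miR-30a (0.53, SE 0.22, limma adjusted p = 0.223), miR-16 (0.84, SE 0.38) and let-7c (-0.44, SE 0.20), the last 2 with adjusted p = 0.279.

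Of 10 other miRNAs reported to target Ezh2, 6 were tested, namely let-7a to let-7e and miR-98, which also belongs to the let-7 family. miR-101a, miR-101b, miR-138 and miR-124 were not tested, so the counts are those of let-7 miRNAs. limma called 0 of the 6 in either sex, beside 2.5% of all 120 in males and 5.0% in females. In each sex 1 of the 6 (16.7%) had an unadjusted p under 0.05, beside 20.8% of all 120 in males and 14.2% in females. In males 2 of the 6 (33.3%) were higher in c-Raf, with a median difference of -0.11, beside 57.5% and 0.13 over all 120. In females 3 of the 6 (50%) were, with a median of 0.00, beside 52.5% and 0.03. The smallest p-values in males were those of let-7d, let-7b (-0.38, SE 0.20, limma adjusted p = 0.234) and let-7a (0.26, SE 0.16, limma adjusted p = 0.314). In females they were those of let-7c, let-7b (-0.38, SE 0.20, limma adjusted p = 0.406) and let-7d (0.15, SE 0.14, limma adjusted p = 0.688). Several let-7 members stand in both groups, and the let-7 miRNAs are close in sequence, so their probes may share signal.

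In tissue, fewer cells that hold a miRNA and less of it per cell cannot be told apart, and the levels of cell type markers are given here beside those of the pair. In M c-Raf and M WT the summed level of the 5 epithelial miRNAs ran from -0.58 to 0.98 and from -0.71 to 0.47, that of the 2 endothelial ones from -2.34 to -1.12 and from -3.76 to -1.63, and that of the 3 erythroid ones from -3.29 to -2.44 and from -3.19 to -0.94. These ranges overlap in all 3 lists. Within the erythroid list the members differed, since miR-486 was lower in M c-Raf by -1.41 (SE 0.33), miR-451 stood at 0.64 (SE 0.40) and miR-144 was detected on 0 arrays. In F c-Raf and F WT the summed levels ran from 0.17 to 0.90 and from -0.27 to 0.69 for epithelium, from -1.81 to -0.95 and from -2.16 to -1.64 for endothelium, and from -3.29 to -2.34 and from -3.04 to -1.98 for erythroid cells. Among epithelial miRNAs, F c-Raf was higher by 0.91 for miR-200a, 0.88 for miR-429, 0.67 for miR-200b and 0.42 for miR-200c. None of these passed (limma, adjusted p = 0.0766, 0.0766, 0.414 and 0.485). The means of miR-141 were -6.58 and -6.64. miR-126-3p was higher in F c-Raf by 0.54 and did not pass (limma, adjusted p = 0.414). The 5 leukocyte miRNAs ran from -3.73 to -2.27 in M c-Raf and from -3.86 to -2.71 in M WT, and from -3.77 to -3.03 in F c-Raf and from -3.76 to -3.47 in F WT. Smooth muscle miR-143 and miR-145 were detected on 3 arrays each. The liver miR-122 was detected on 2 arrays. Their part in the miR-26b difference was not tested.

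**Figure D5:**
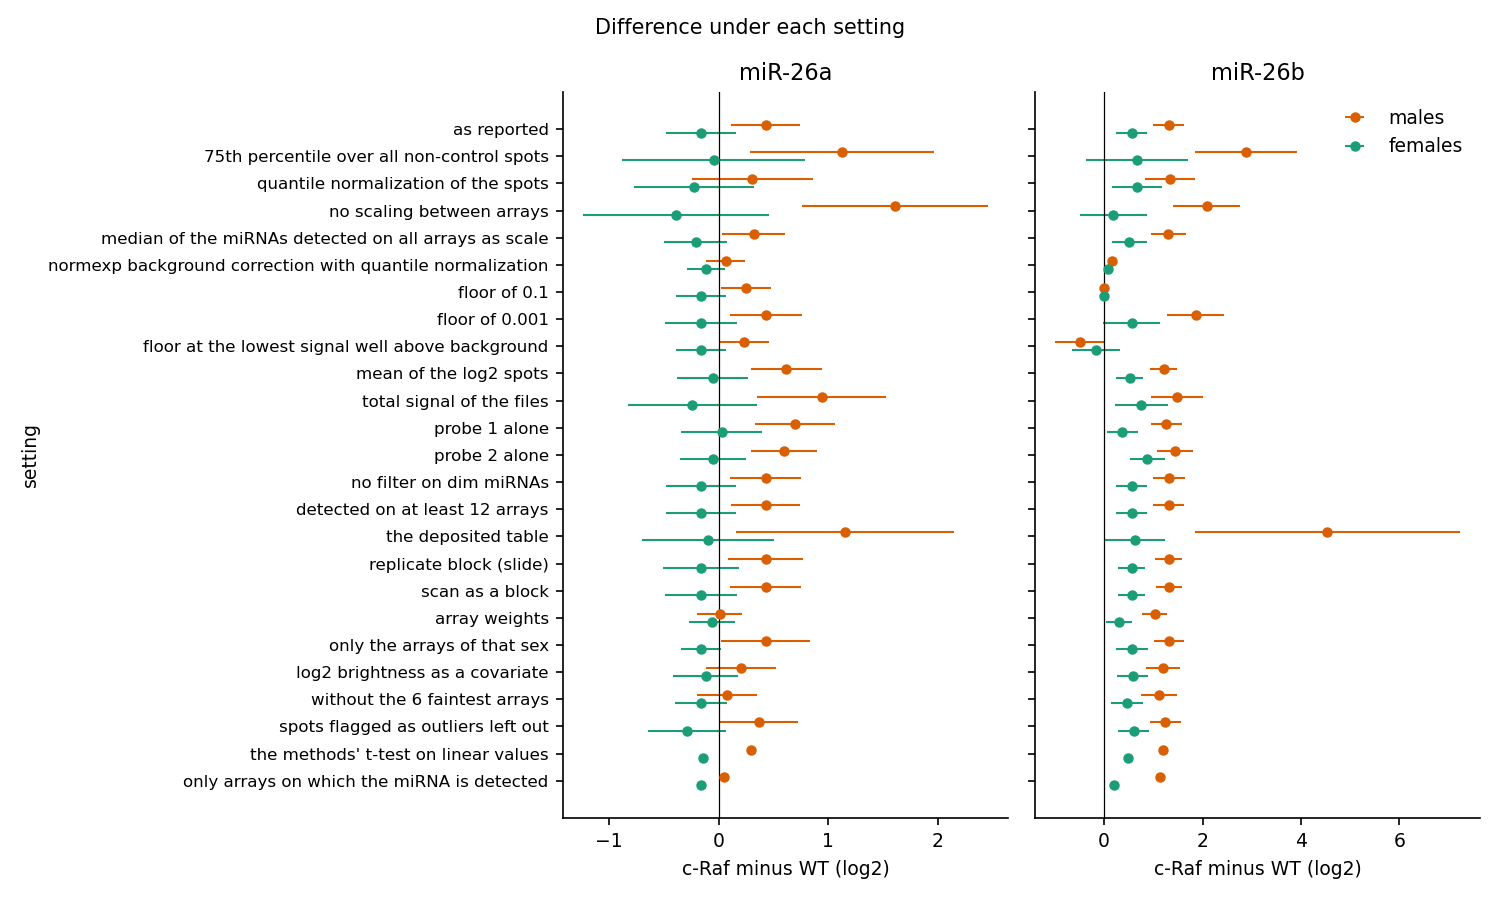
Difference between c-Raf and WT on the log2 scale for miR-26a (left) and miR-26b (right) under each processing setting, males in orange and females in green, with bars of ± SE where a fit gave one. The male miR-26b value lies between 1 and 2 in most settings, above 2 without scaling, with the percentile over all spots and in the deposited table, and at or below 0.16 with normexp, a floor of 0.1 or a floor set where spots first rise well above background; female values lie close to 0 for miR-26a and mostly between 0 and 1 for miR-26b.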

How the data were processed

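The authors hybridised Cy3-labelled total RNA to Agilent mouse miRNA arrays and extracted spot values with Agilent Feature Extraction, version 10.7.3.1 per the file headers. The deposited scanner files give background-subtracted intensity for each spot, a detection flag for each miRNA and a flag for spots well above background. A deposited table of the series holds the median spot intensity times 1 factor per array.

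Spot intensities were divided by the 75th percentile over the spots of the 27 miRNAs detected on all arrays, values under 0.01 were set to 0.01, the median over the 20 spots was taken, and log2 was computed. Values at the floor have no order, and a value set to the floor can understate a difference. Values above it need not be detected signal. On M c-Raf replicate 6, the faintest array, miR-26b* stood at -3.99 without being detected, so differences of dim miRNAs can also be overstated. The lmFit and eBayes functions of limma 3.58.1 (R 4.3.3) were applied to 120 mouse miRNAs detected on at least 6 of 24 arrays, with 1 mean per group over all 24 arrays. Calls were made at an adjusted p under 0.05 (Benjamini-Hochberg over 120). On simulated data the script was tested for known changes. Permutation tests used scipy, exact for group differences and with 100000 resamples for correlations over the 12 female arrays.

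The members and lists were chosen with earlier results of these data known. The text names the pair, its star form, the 5 miRNAs most correlated with each member and, from each list, those called or else the 3 with the smallest p. The replicate number in the titles is the slide by the file headers. Over all tested miRNAs, deviations of same-slide arrays correlated between -0.35 and 0.51 in males, over 0.1 on 2 of 6 slides, and between -0.12 and 0.70 in females, over 0.1 on 4 of 6. Slide as a block was kept as an alternative, and with it the SE of the female miR-26b difference was 0.28. Slides 2 and 3 made up scan 4, slides 5 and 6 scan 2, and slides 1 and 4 scans 3 and 1. The number of arrays, 6 per group, limits the precision. normexp was run on the median signal of each spot in place of the mean signal.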

Additional observations from a re-analysis of the deposited data

Results flagged for a closer look

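One value stood apart from its group. miR-26a on M WT replicate 4 had a level of -4.42, and its gap to the next array was 0.793 of the range of the 6 M WT arrays, above Dixon's 95% critical value for 6 samples. Among 8 groups examined (2 members in 4 groups) this was the only one past the limit, and chance passes it in about 5% of groups. miR-26a was not detected on that array, miR-26b was at the floor there, and its brightness of 52.8 units was the second lowest of the 24 arrays.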

How the results depend on the processing

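No setting brought a female difference of the pair under an adjusted p of 0.05 (0.644 to 1 for miR-26a and 0.207 to 1 for miR-26b). With slide as a replicate block the differences stayed at -0.16 (adjusted p = 0.843) and 0.56 (adjusted p = 0.312) in females and at 0.43 and 1.31 in males. For miR-26b in males the difference moved to 2.88 with the percentile over all spots, 2.08 without scaling, 0.16 with normexp and quantile normalization, 0 with a floor of 0.1, 1.87 with a floor of 0.001, 4.53 in the deposited table, and 2.39 and 0.50 within scans 1 and 4, and turned to -0.50 with a floor set, on each array, at its dimmest signal still well above background. For the percentile over all spots, no scaling and the deposited table, the male median of all miRNAs tested moved to 1.01, 1.19 and 1.06. For miR-26b in females it turned to -0.17 with that floor and to -0.0071 within scan 1, and moved to 1.32 within scan 3. For miR-26a in females it turned to 0.029 with probe 1 alone and 0.071 within scan 1, and in males it moved to 1.61 without scaling and 2.97 within scan 1 and turned to -0.19 and -0.44 within scans 3 and 4. The causes were not tested. Leaving out any 1 array gave -0.24 to -0.028 for miR-26a and 0.32 to 0.68 for miR-26b in females, and 0.05 to 0.55 and 1.14 to 1.5 in males. Calls numbered 6 in females (0 without scaling to 11 with array weights, 2 to 8 without 1 array) and 3 in males (0 without scaling to 7 with scan as a block, 1 without M WT replicate 4 to 7 without M c-Raf replicate 6). The covariate, faintest-array and outlier-spot settings were chosen after seeing the data. As to depth, miR-26b was not detected on 12 arrays with a brightness of 34.9 to 268 units, a range that overlaps the 175 to 1212 units of the 12 where it was.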

Other observations

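The star form miR-26b* gave values above the floor on 3 arrays without being detected: -3.99 on M c-Raf replicate 6, -5.73 on M WT replicate 5 and -6.53 on F WT replicate 6. M c-Raf replicate 6 was the faintest array, at 34.9 units, and there miR-26b was at -4.13, the highest M c-Raf level, also without being detected.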
